A study of Mus musculus with 6 samples.

Results

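The urokinase receptor and the plasminogen system were followed through 8 genes in sorted mouse microglia: *Plaur*, *Plau*, *Plat*, *Plg*, *Serpine2*, *Serpinb2*, *Thbd* and *F3*. Every non-control probe whose transcript accession maps to one of these symbols was taken, which gave 9 of the 56605 probes on the array, 2 of them for *Plau* and 1 for each other gene. The genes were listed with earlier results of the same genotype comparison known, in which *Plaur* stood out, so the genes were selected on their B41KO against B41HET differences, which are given as a description. The array-wide rule for calling a probe is applied to them below for the count alone, and no p-value is given for them. The other genes of the pathway, 54 in number, form a separate list that was also written with earlier results known. Its limma adjusted p-values, taken over all probes, are given gene by gene and are not independent evidence about the list.

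Microglia were enriched over Percoll from brains of young mice, 3 months old, and sorted as live CD45lo CD11b+ Cx3cr1+ cells. The 6 samples, 3 of each genotype, were hybridized in 1 colour to SurePrint G3 Mouse arrays on 1 slide that was scanned in 1 session. Per the Methods each sample was pooled from many mice, while the labels speak of 3 mice per genotype, so the spread between samples is that between these pooled preparations. Control mice, B41HET, were Bhlhe41 dTomato-Cre/+, and knockout mice, B41KO, were Bhlhe41 dTomato-Cre/dTomato-Cre, all on the C57BL/6 background. Both genotypes therefore carry the cassette, which lies upstream of the start codon of *Bhlhe41*, is driven by that gene's own promoter and ends translation of Bhlhe41 from its allele. B41HET mice keep 1 intact allele and no wild-type sample was analysed here. The 2 *Bhlhe41* probes were not lower in B41KO (0.38 and 0.33 higher on the log2 scale, limma adjusted p = 0.330 and 0.203). The cassette of the study carries a polyA, and the study describes an end of translation without stating whether the transcript is lost. It also reports higher dTomato, driven by the same promoter, in B41KO than in B41HET microglia. These probes therefore do not check the genotype labels.

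Urokinase (*Plau*) and tissue plasminogen activator (*Plat*) are serine proteases that cleave the zymogen plasminogen (*Plg*) to plasmin, a broad protease that dissolves fibrin and cuts matrix proteins. The urokinase receptor, encoded by *Plaur*, is held in the membrane by a lipid anchor, concentrates urokinase on the cell surface and passes signals through integrins and other partners. Serpins such as *Serpine2* and *Serpinb2* block the activators, and tissue factor (*F3*) and thrombomodulin (*Thbd*) start and restrain the thrombin side of the same balance between clotting and its removal. In the brain, microglia express the receptor when activated, and neutrophils and monocytes are known to express it as well.

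The promoters of the 2 members that were above all control samples in B41KO and well measured are shown first, since Bhlhe41 is a repressor that binds the E-box CACGTG. Each is the stretch of 250 bases before the RefSeq transcription start on GRCm38.p6, written 5′ to 3′ on the gene's strand. Capitals mark a match to TGANTCA, the AP-1 motif, in *Plaur* (chr7:24462233-24462482, plus strand) and a match to CANNTG, the general E-box, in *Serpine2* (chr1:79858666-79858915, minus strand).
Plaur: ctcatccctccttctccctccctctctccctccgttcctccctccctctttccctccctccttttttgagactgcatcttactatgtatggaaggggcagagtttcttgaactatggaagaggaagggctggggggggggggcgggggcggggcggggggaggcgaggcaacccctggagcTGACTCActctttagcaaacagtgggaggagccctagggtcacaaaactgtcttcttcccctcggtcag
Serpine2: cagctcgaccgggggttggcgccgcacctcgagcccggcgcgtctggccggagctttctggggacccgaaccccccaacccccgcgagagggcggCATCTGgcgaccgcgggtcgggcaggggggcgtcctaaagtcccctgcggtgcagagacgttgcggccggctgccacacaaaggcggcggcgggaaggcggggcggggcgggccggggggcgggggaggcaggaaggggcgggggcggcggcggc
The promoter table held 4 of the 8 members, and windows of 300 bases, from 250 before to 50 after the start, were searched. All 3 motifs searched read the same on both strands, and any match to the E-box of Bhlhe41 is also one to the general E-box. CACGTG was in none of the 5 windows of *Plaur*, *Serpine2*, *Serpinb2* (2 starts) and *F3*, and it is in 7.15% of the 32851 windows of the table. CANNTG, present in 72.3% of all windows, was found once in *Serpine2*, as CATCTG at position -155, and not in the others. TGANTCA, present in 7.81% of all windows, was found in *Plaur* (TGACTCA at -69), in both *Serpinb2* windows (TGAATCA at -94 and -181, the same letters seen from 2 starts) and at 2 places in *F3* (TGAATCA at -146 and TGAGTCA at -135). These are matches of letters in a short window and say nothing of binding.

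The receptor had the clearest difference between genotypes among the members. On the scale used below, log2 of the quantile-normalized intensity, *Plaur* read 8.242, 8.196 and 8.085 in the B41HET samples and 9.992, 10.019 and 10.005 in the B41KO samples. The genotypes did not overlap, with 1.75 between the highest control and the lowest knockout sample. The mean difference was 1.83 ± 0.073 (standard error, n = 3 and 3), a linear ratio of 3.56. Before any normalization between arrays the processed intensities already stood apart, at 268 to 340 in B41HET and 891 to 1028 in B41KO, with a scanner error of 10.02% or less on each spot. The single *Plaur* probe was well above background on all 6 arrays. Among the 23462 named genes, each taken by its brightest probe, *Plaur* ranked 15 from the top by difference, and 7 among the 17222 well above background on every array. The 3 B41HET arrays and B41KO 1 lay in row 1 of the slide and B41KO 2 and B41KO 3 in row 2. Within row 1 *Plaur* was higher in the knockout sample by 1.82.

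The activators did not share this pattern. The brighter *Plau* probe read 7.14, 7.48 and 7.38 in B41HET and 7.28, 7.39 and 7.04 in B41KO, a difference of -0.09 ± 0.14 with overlapping genotypes. The second *Plau* probe, designed on the same transcript, read 4.83, 4.78 and 4.72 in B41HET and 3.23, 3.56 and 3.63 in B41KO. Every knockout value lay below every control value, with a mean difference of -1.31 ± 0.12. It was well above background on 3 B41HET arrays and 2 B41KO arrays, with processed intensities of 25.4 to 30.6 against 8.68 to 12.4, and background correction by normexp reduced the difference to -0.30. The 2 probes of urokinase thus disagreed, and no single level of *Plau* can be given. *Plat*, the activator best known from endothelium and neurons, did not rise well above background in any sample and read 0.63, 1.88 and 0.83 in B41HET and 1.40, 0.84 and 0.76 in B41KO, with overlap.

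The zymogen was measured on every array and showed no difference beyond its error. *Plg*, whose product is made mainly in the liver and circulates, read 6.57, 6.80 and 6.96 in B41HET and 6.74, 6.58 and 7.01 in B41KO. The values overlapped fully, with a difference of -0.0013 ± 0.15 and a 95% confidence interval from -0.38 to 0.38.

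Of the 2 inhibitors among the members, protease nexin-1 (*Serpine2*), which blocks thrombin, urokinase and tissue plasminogen activator, read 11.00, 10.98 and 11.04 in B41HET and 11.28, 11.22 and 11.16 in B41KO. Every knockout value lay above every control value, by a mean of 0.22 ± 0.069, a linear ratio of 1.16. That separation is found after normalization only, because the processed intensities overlapped, at 2063 to 2312 in B41HET and 2018 to 2403 in B41KO. *Serpinb2*, plasminogen activator inhibitor 2, did not rise well above background in any sample and stayed between 0.55 and 0.72 on the log2 scale in all samples.

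The 2 members of the thrombin side were also near background. *Thbd* read 0.54, 0.58 and 1.28 in B41HET and 0.53, 0.57 and 0.54 in B41KO, and *F3* read 1.87, 1.64 and 2.41 in B41HET and 2.73, 1.47 and 0.61 in B41KO. Neither rose well above background in any sample, both overlapped between genotypes, and the *F3* values within B41KO spread over more than the difference between the means. *Plat* and *Thbd* are known from endothelial cells. Of 10 endothelial markers 6 (*Pecam1*, *Cldn5*, *Kdr*, *Vwf*, *Slc2a1* and *Slco1a4*) were well above background in all samples and 4 (*Cdh5*, *Flt1*, *Tek* and *Emcn*) in none.

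**Figure D1:**
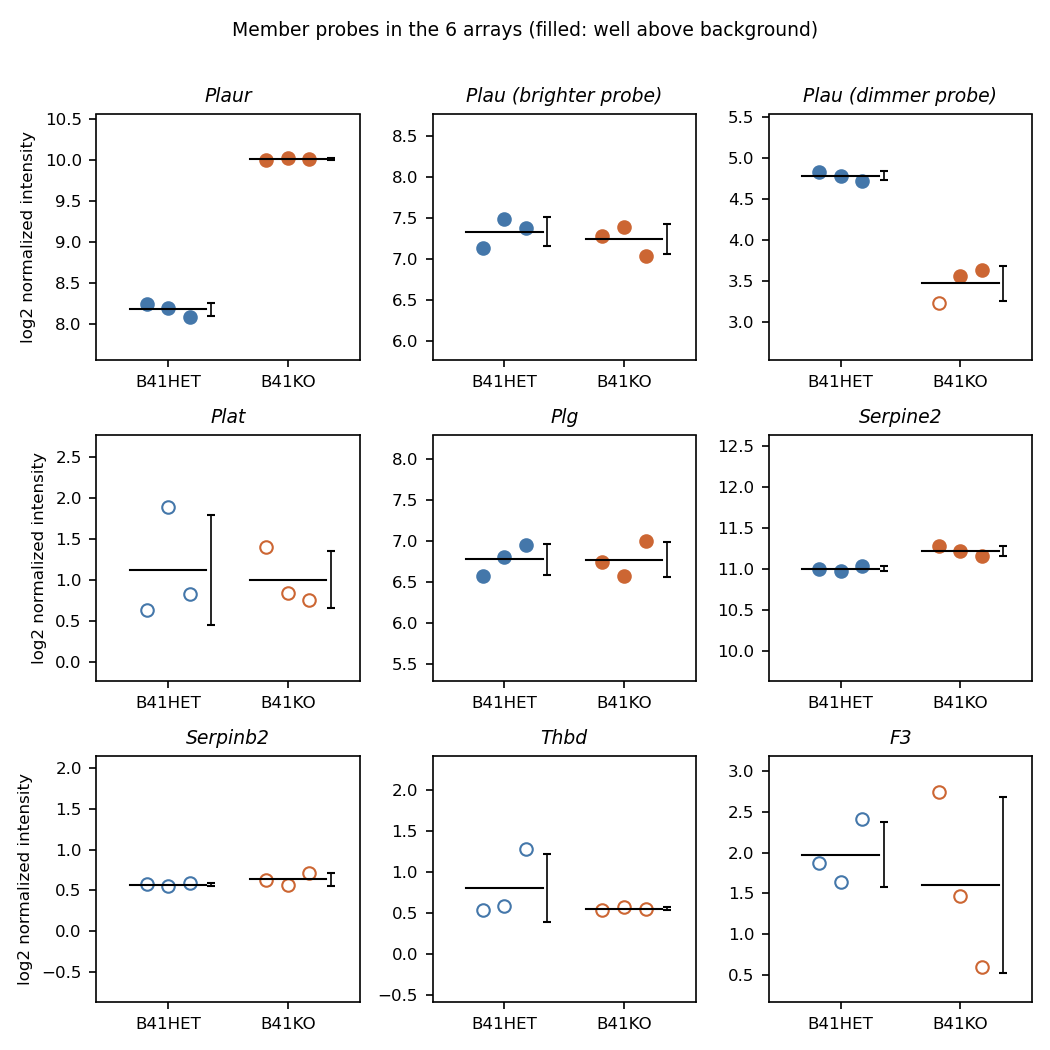
Log2 normalized intensity (vertical axis, each panel spanning the same range of log2 units) of the 9 member probes in the 3 B41HET and 3 B41KO arrays; points are samples, filled where the probe was well above background, and lines and bars are means and standard deviations. The B41KO samples lie between 9.992 and 10.019 for Plaur, 1.75 or more above each control sample, while Plat, Serpinb2, Thbd and F3 have open points only.

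A probe was called where limma gave a Benjamini-Hochberg adjusted p of 0.05 or less over all probes and the log2 difference was at least 0.5 in size. By that rule 2 of the 9 member probes were called, *Plaur* higher and the dimmer *Plau* probe lower, beside 5.07% of all probes tested (2867 of 56601). The genotypes did not overlap for 3 of the 9, those 2 and *Serpine2*, beside 29.7% of all probes. Since the members were listed with this contrast known, these counts are no test of them and nothing is read from them. Over 14 alternatives, 10 of which are plotted, *Plaur* stayed between 1.64 and 1.91 and the dimmer *Plau* probe between -1.55 and -0.30.

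**Figure D2:**
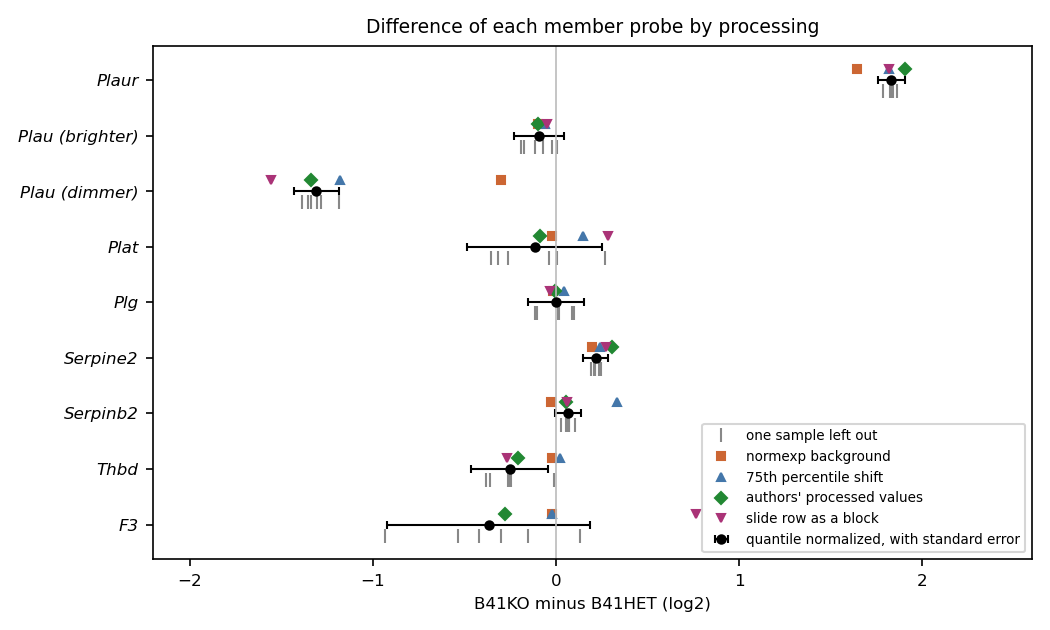
Difference between genotypes (B41KO minus B41HET, log2, horizontal axis) for each member probe; black points with bars are the quantile-normalized values with standard errors, coloured symbols 4 other ways of processing, and grey ticks the fits with one sample left out. Plaur lies between 1.64 and 1.91 at every symbol and tick, whereas the dimmer Plau probe moves to -0.30 under normexp and F3 falls on both sides of 0.

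Around the receptor, the other genes of the system that were called in the fit reported here were all lower in B41KO. Under the authors' own log2 values and under normexp *Plgrkt* was called higher. Of 54 listed genes, all with a named probe, 11 were called lower and 0 higher, beside 4.01% and 1.44% of all 23462 genes. At an unadjusted limma p under 0.05 there were 16 lower and 5 higher of the 54, beside 14.4% lower and 10.6% higher of all genes, which are the shares to read each later count at this level against. The list was not lower as a whole, since 27 genes had a higher and 27 a lower mean in B41KO and the median difference was -0.01, beside 0.01 over all genes. On all 6 arrays 38 of the 54 were well above background, and 11 were so on none.

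Of 4 plasminogen receptors and binding proteins 2 were called lower and 0 higher, with 3 lower and 1 higher at an unadjusted limma p under 0.05. *Anxa2*, annexin A2, which together with *S100a10* forms the heterotetramer that holds plasminogen and tissue plasminogen activator on the cell surface, ranged from 7.20 to 7.67 in B41HET and from 5.11 to 5.38 in B41KO, a difference of -2.27 ± 0.16 (limma adjusted p = 0.00343). *S100a10* ranged from 6.84 to 6.98 and from 5.85 to 6.16, a difference of -0.90 ± 0.10 (limma adjusted p = 0.0111). Both parts of the complex were called on each of their 2 probes. *Plgrkt*, a membrane receptor that binds plasminogen through a terminal lysine, went the other way with 10.59 to 10.97 in B41HET and 11.20 to 11.31 in B41KO, a difference of 0.49 ± 0.12 that was not called (limma adjusted p = 0.0696).

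Partners of the receptor in the membrane and matrix made up the next group. Of 14 such genes 4 were called lower and none higher, with 5 lower and 1 higher at an unadjusted limma p under 0.05. The formyl peptide receptors *Fpr1* and *Fpr2*, through which cleaved urokinase receptor can act as a chemoattractant, differed by -1.70 ± 0.26 and -0.96 ± 0.089 (limma adjusted p = 0.0244 and 0.00717), and the 2 *Fpr2* probes were both called, with -0.96 and -3.22. The fibronectin receptor chain *Itga5* differed by -0.83 ± 0.067 (limma adjusted p = 0.00506). Vitronectin (*Vtn*), the matrix ligand of the urokinase receptor, differed by -1.47 ± 0.20 (limma adjusted p = 0.0182), from 4.83 to 5.30 in B41HET down to 3.29 to 3.90 in B41KO, but by -0.40 after normexp, where it was not called. The integrin chains that the receptor is best known to pair with in myeloid cells gave smaller values. *Itgam*, CD11b and one of the sorting markers, differed by -0.03 ± 0.066 (limma adjusted p = 0.855), and *Itgb2* by -0.38 ± 0.072 (limma adjusted p = 0.0403), which is under the fold needed for a call. *Itgb1* differed by 0.08 ± 0.092 (limma adjusted p = 0.667). The scavenger receptor *Lrp1*, which takes up complexes of urokinase, inhibitor and receptor, differed by 0.11 ± 0.082 (limma adjusted p = 0.498).

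The listed inhibitors had no call in either direction among 7 genes, with 1 higher and 1 lower at an unadjusted limma p under 0.05, close to what the shares over all genes give for a list of this size. They were *Cpb2*, a carboxypeptidase that removes the lysines to which plasminogen binds on fibrin, with a difference of 0.23 ± 0.090 (limma adjusted p = 0.204), and *Serping1*, the C1 inhibitor, with -0.39 ± 0.12 (limma adjusted p = 0.119). Both are named after their values were seen.

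Of 10 metalloproteinases and their inhibitors 3 were called, all of them metalloproteinases and all lower, and an unadjusted limma p under 0.05 gave the count of 3 lower and 0 higher. Plasmin can activate several proenzymes of this family. *Mmp9*, gelatinase B, had the largest difference of the list. It read 9.80, 9.77 and 9.71 in B41HET and 6.78, 6.82 and 6.68 in B41KO, a difference of -3.00 ± 0.074 (limma adjusted p = 2.82e-04), and both its probes were called. The membrane-bound *Mmp14* and the gelatinase A gene *Mmp2*, whose proenzyme *Mmp14* activates, differed by -1.58 ± 0.094 and -0.73 ± 0.12 (limma adjusted p = 0.00220 and 0.0262). The other 7 genes of this group, *Timp1*, *Timp2*, *Timp3* and *Reck* among them, were not called.

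On the thrombin side 2 of 14 genes were called, both lower, with 3 lower and 2 higher at an unadjusted limma p under 0.05. Coagulation factor X (*F10*) was well above background on all B41HET arrays and on no B41KO array, so its difference is a bound of at least 1.61-fold higher in B41HET, taking the dimmest signal well above background on each knockout array (limma adjusted p = 0.0134). Factor XIII A chain (*F13a1*), which cross-links fibrin, was well above background on 3 B41HET arrays and 1 B41KO array, so the size of its fitted difference, -1.92 ± 0.35 (limma adjusted p = 0.0374), rests in part on signals near background. After normexp neither was called, with differences of -0.20 for *F10* and -0.48 for *F13a1*. The thrombin receptor *F2r* rose well above background in no sample and the protein C receptor *Procr* in 1, and neither was called (limma adjusted p = 0.702 and 0.780). None of the 5 growth factors that plasmin or urokinase can free or activate was called, with 1 lower and 0 higher at an unadjusted limma p under 0.05.

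**Figure D3:**
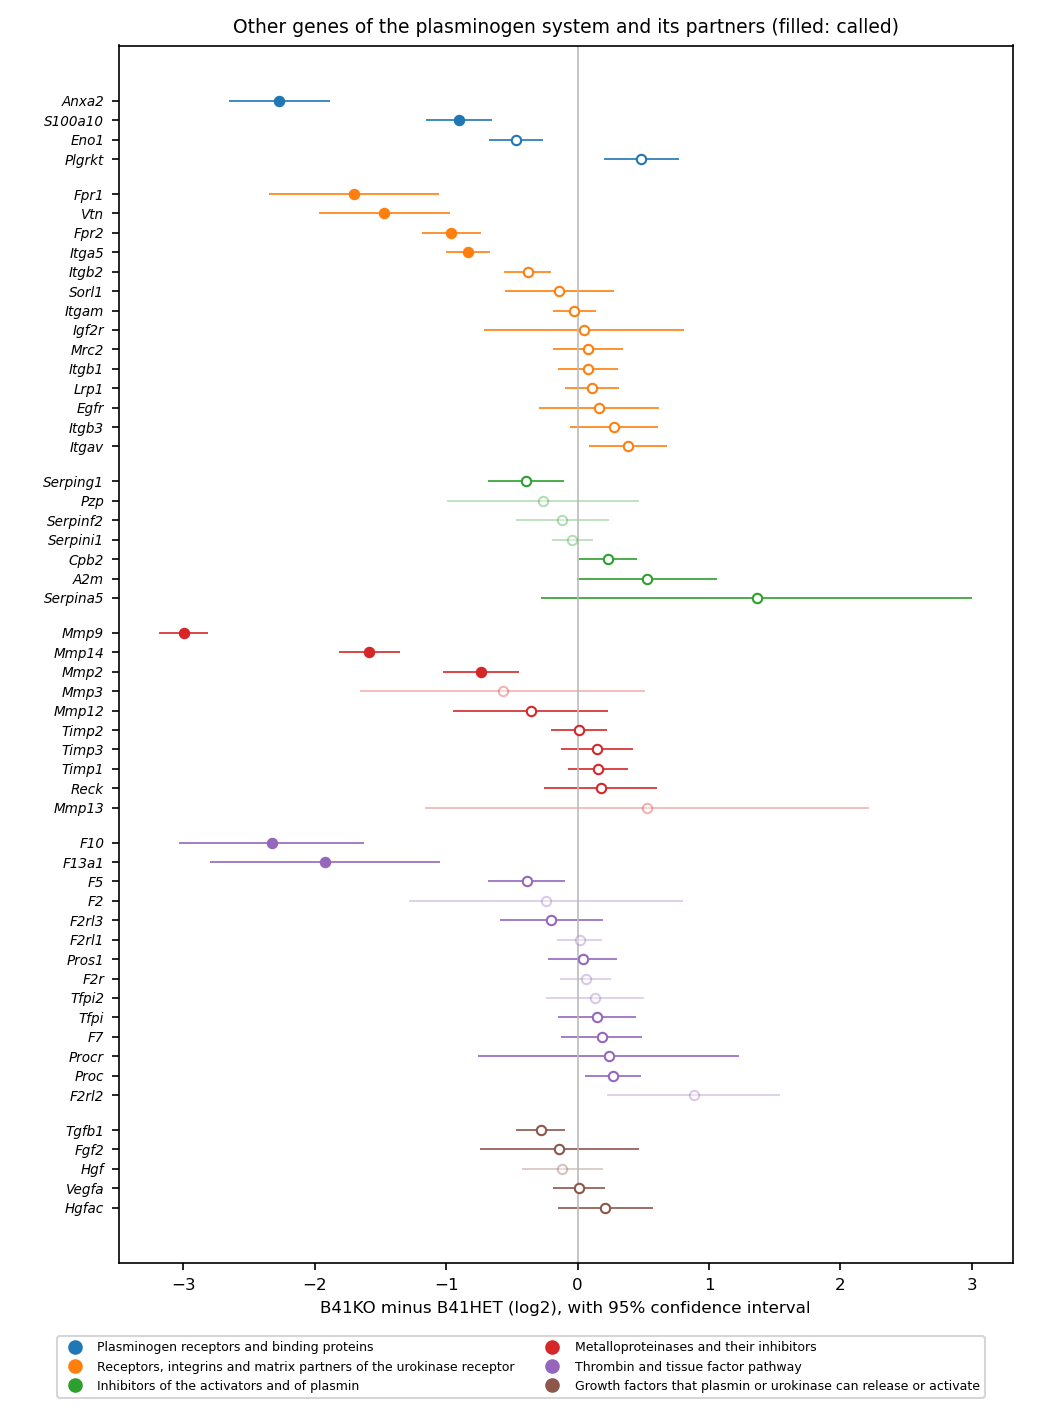
Difference between genotypes (B41KO minus B41HET, log2, horizontal axis) with 95% confidence intervals for the brightest probe of 54 genes in 6 groups; filled points are called, and pale ones were near background in all samples. The 11 filled points, Mmp9 at -3.00 the farthest among them, all lie left of 0.

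Which of the 11 genes were called depended on the samples used. Within row 1 of the slide all of them were lower in the knockout sample, by 0.66 to 2.98 on the log2 scale, but with the slide row as a block only *Anxa2*, *Mmp9* and *Mmp14* were called. Without B41HET 1 or without B41HET 2, 5 of the 11 were called, and without B41KO 2, 7 of them, and *Anxa2*, *Itga5*, *Fpr2*, *Mmp9* and *Mmp14* were among them whichever sample was left out.

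Markers of other blood and border cells moved with this group of genes. In these bulk samples fewer cells of a type and less RNA per cell cannot be told apart. Of 12 microglial markers 1, *Fcrls*, was called lower and 0 higher by limma, with 3 lower and 1 higher at an unadjusted p under 0.05. The median of the differences over these 12 genes was -0.01, and the mean log2 intensity of the list, taken over the same genes on each array, was 12.97 to 13.07 in B41HET and 12.91 to 12.98 in B41KO, with overlap. Of 10 neutrophil markers 7 were called lower, among them *S100a8*, *S100a9*, *Ngp* and *Ltf*, with 8 lower and 1 higher at an unadjusted p under 0.05, a median difference of -2.01 and list means of 10.03 to 10.16 in B41HET against 8.35 to 8.41 in B41KO. *Mpo* and *Elane*, also on that list, differed by 0.39 and -0.04 and were not called. Of 7 monocyte markers 4 were called lower, with 5 lower and 0 higher at an unadjusted p under 0.05, a median difference of -2.10 and list means of 5.95 to 6.09 against 4.36 to 4.81. Of 10 markers of border macrophages 6 were called lower, with 10 lower and 0 higher at an unadjusted p under 0.05, a median difference of -1.18 and list means of 5.97 to 6.13 against 4.74 to 4.94. None of the 3 lists had a called member above B41HET, nor a marker at background on all arrays. *F10* is also on the monocyte list and *F13a1* on the border macrophage list and each counts under both. The samples were sorted for CD45lo CD11b+ Cx3cr1+ cells, and how many other cells remained was not measured here. Neutrophils and monocytes are known sources of *Mmp9*, *Fpr1* and *Fpr2*. The part of these cells in the fall of the 11 genes was not tested. Astrocytes, known to express *Serpine2* and *F3*, had none of 8 markers called by limma, with 2 lower and 0 higher at an unadjusted p under 0.05, a median difference of 0.08 and list means of 7.20 to 7.34 against 7.20 to 7.32. A list of 12 genes that rise when microglia are handled outside the brain had 5 called lower and none higher, with 8 lower and 0 higher at an unadjusted p under 0.05. Its members *Fos* and *Jun*, which encode proteins of the AP-1 factor, differed by -0.60 ± 0.12 and -0.55 ± 0.075 (limma adjusted p = 0.0452 and 0.0188), and were called in 5 and 6 of 14 alternatives.

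**Figure D4:**
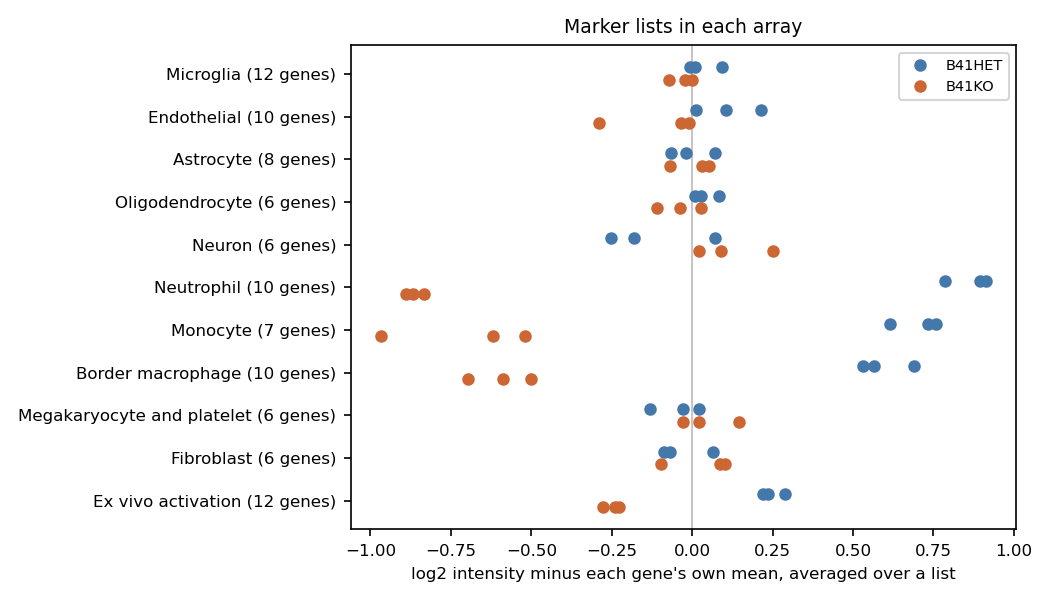
Log2 normalized intensity minus each gene's own mean over the 6 arrays, averaged over the genes of each marker list (horizontal axis), in every array, blue for B41HET and orange for B41KO. The neutrophil, monocyte, border macrophage and ex vivo lists lie well lower in every B41KO array, the endothelial list by a narrow gap (list means of 3.95 to 4.23 against 4.25 to 4.45), and the genotypes overlap for the other lists.

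The genes whose values most resembled those of *Plaur* across the 6 arrays were sought among 17206 other genes well above background on every array. The samples form a separate cluster for each genotype and *Plaur* varied little within them, so a high Pearson r reflects the genotype gap and low scatter, and 53 genes had an r over 0.99. The closest were *Larp1* (r = 0.9997), an RNA-binding protein, *Tlr1* (0.9994), a Toll-like receptor, *Fcrl1* (0.9988), an Fc receptor-like protein, *Ank* (0.9986), a pyrophosphate transporter, and *Hcar2* (0.9983), the receptor of niacin and hydroxybutyrate. They were higher in every B41KO sample, *Ank* by 1.42 ± 0.081 and *Hcar2* by 1.41 ± 0.074, down to *Larp1* with 0.34 ± 0.062, which was under the fold needed for a call. The closest mirror images were *Timm10b* (r = -0.9992), *Capzb* (-0.9989), *Nacc1* (-0.9987), *Emilin2* (-0.9984) and *S100a11* (-0.9984). *S100a11*, a calcium-binding protein of the same family as *S100a10*, had the largest fall of the 5, at -2.60 ± 0.075. These genes were picked for their values and so carry no test.

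**Figure D5:**
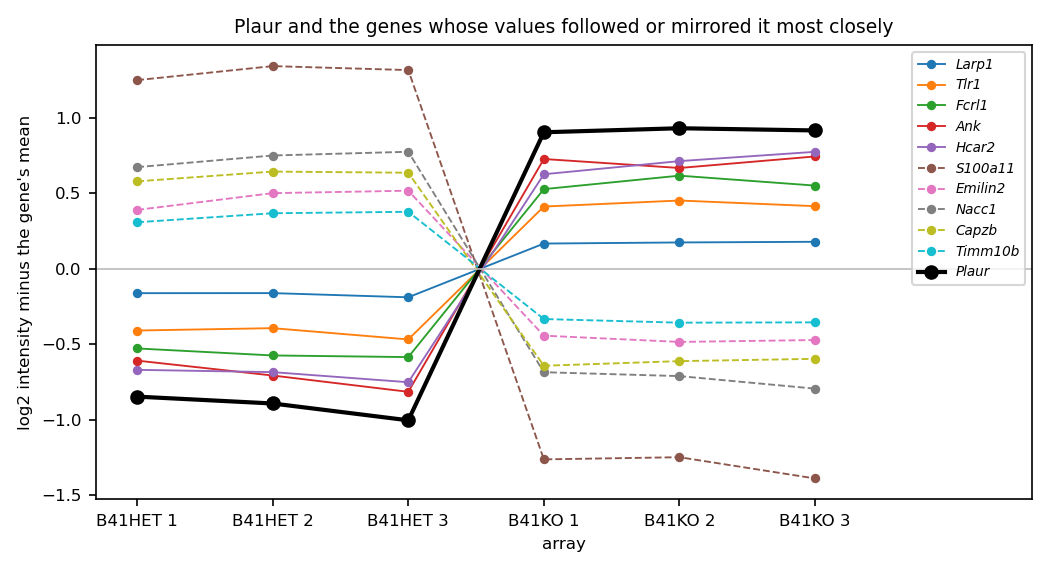
Log2 intensity minus each gene's own mean (vertical axis) in the 6 arrays for Plaur (black), the 5 genes with the highest (solid) and the 5 with the lowest (dashed) Pearson r with it; lines only join the points of a gene. Each gene changes level between the genotypes and is nearly flat within them, S100a11 with the largest step, -2.60.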

How the data were processed

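Gene expression was measured on 6 single-colour arrays, 3 B41HET and 3 B41KO. The authors deposited processed intensities from Agilent Feature Extraction 11.5.1.1, background-subtracted within each array, and a table of log2 values whose columns rank the probes as the arrays do, used as an alternative. Controls were removed, as were single spots flagged as outliers, and no member spot had such a flag. The log2 intensity was quantile normalized, as the Methods state, and averaged over the spots of a probe. Of 56605 probes, 33767 (59.7%) were named by matching transcript accessions to RefSeq genes on GRCm38.p6, and the array design names another build, so no probe coordinates are given. All 6 samples were fitted with limma 3.58.1 in R 4.3.3, with genotype as the only term, for 56601 probes with a value in at least 2 samples of each genotype. A call required a Benjamini-Hochberg adjusted p at or under 0.05 together with a log2 difference of at least 0.5 in either direction. Between 70.1% and 75.5% of probes were well above background per array, no spot was saturated, and the 6 arrays limit the precision. Plots used matplotlib 3.10.9 and Python 3.11.15.

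The members, the pathway and marker lists and the rule for the genes named were chosen with earlier results of these data known. Named were all member probes, *Bhlhe41*, every pathway gene called on its brightest probe, 10 pathway genes whatever their values (*Plgrkt*, *S100a10*, *Anxa2*, *Itgam*, *Itgb2*, *Itgb1*, *Lrp1*, *Vtn*, *F2r* and *Procr*), and the 5 genes with the highest and the 5 with the lowest Pearson r with *Plaur*. Other genes named are examples from the marker and pathway lists. Promoters came from a RefSeq table that held 4 of the 8 members, and protein sequences were not used here. A pathway gene and a marker gene that had been listed are not reported here and were left out of the lists and their counts. The fit was repeated with 75th percentile scaling in place of quantiles, with the log2 values of the authors, with normexp (offset 50, median spot signals), after dropping dim probes (fewer than 3 arrays above background), with flagged spots retained, with trend and robust variance, with a replicate or slide-row term, without each sample, at other fold thresholds, and with other choices of the probe that stands for a gene. As a single slide was scanned in a single session, neither is a batch that can be tested.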

Additional observations from a re-analysis of the deposited data

How the results depend on the processing

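The call rule picked 2 member probes, a count and not a test, under each alternative except normexp (1) and the replicate block (0). Of the 11 pathway calls 8 remained under normexp, all but *Vtn*, *F10* and *F13a1*. Over all probes 2867 calls became 1500 under normexp, 444 with the slide row as a block, 799 with a log2 difference of 1 or more, and 792 to 1525 with one sample left out. For the pathway list 11 calls became 3 with the slide row as a block, 7 with the larger fold, and 5 to 8 with one sample left out, all lower. A pathway gene was called higher in 1 case each under the authors' values and normexp (*Plgrkt*), against 0 otherwise. Of 30 called probes of named genes that were fitted again, 0 changed direction in any of 14 fits. These probes were picked as called, so this count is no test. Under the replicate block 42 probes, 0 member probes and 1 pathway gene, *Mmp9* (1 lower), were called. Same-numbered deviations from the genotype means correlated at 0.028, 0.014 and 0.048, against -0.051 to 0.028 for samples of unlike number. With 3 samples per genotype these values cannot settle whether the replicate numbers pair the samples. The shift to the 75th percentile moved the median of all probes to 0.13, against 0.02 as reported, and *Plaur* then differed by 1.82. *Vtn*, *Fpr1*, *Mmp2*, *F10* and *F13a1* were each called in 6 to 8 of 14 alternatives. The causes were not tested. Differences of *Plat*, *Serpinb2*, *Thbd* and *F3* are limited by signals at background, and *F3* ranged from -0.93 to 0.76.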

Other observations

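Other lists written for the plasminogen system and its possible sources held few or no calls. Of 10 endothelial markers *Pecam1*, which leukocytes express too, was called lower (-1.68 ± 0.11, limma adjusted p = 0.00301). Oligodendrocyte, neuronal, platelet and fibroblast markers had no call by limma in either direction among 6 genes each. At an unadjusted p under 0.05 there were 0 higher and 1 lower oligodendrocyte, 2 higher and 0 lower neuronal, 1 higher and 1 lower platelet and 0 fibroblast markers. The 2 neuronal markers were *Stmn2* and *Nefl*, which like *Syt1*, the platelet gene *Ppbp* and the fibroblast gene *Lum* were not well above background on any array. Beside the called border macrophage genes, *Mrc1* and *Lyve1* were well above background on all B41HET arrays and on no B41KO array, at least 2.12-fold and 1.28-fold higher in B41HET, but missed the adjusted threshold (limma adjusted p = 0.0745 and 0.0974).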
